A study of Mus musculus with 12 samples.

Results

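The mouse Cyp2c genes encode cytochrome P450 enzymes that lie side by side on chromosome 19 and are made mainly by hepatocytes. Described here are 10 of them, Cyp2c29, Cyp2c37, Cyp2c38, Cyp2c39, Cyp2c40, Cyp2c50, Cyp2c54, Cyp2c67, Cyp2c69 and Cyp2c70, taken from the 38087 genes of the count table by their symbols. The table holds 16 rows whose symbol starts with Cyp2c, so 6 rows of the name are not members. The set was chosen by the members' counts in these same livers, with their ghrelin against PBS fold changes known, so every comparison of the 2 treatments below is a description and carries no test of its own.

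The samples were 12 livers of germ-free male C57BL/6j mice, animals that lack a microbiota, aged 13 to 16 weeks and sampled at zeitgeber time 2 (ZT02). The ghrelin group (n = 6) received 10 µg of rat ghrelin per mouse under the skin each day for 5 days, and PBS, phosphate-buffered saline, was injected in its place in the other group (n = 6). Ghrelin is a stomach hormone that stimulates feeding and growth hormone release. No label says that each library comes from a separate animal, and where that does not hold, the spread between libraries is technical.

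Cytochromes P450 insert oxygen into fats, steroids and drugs, using electrons passed on by the reductase Por and a haem group. The Cyp2c enzymes of mouse liver oxidise arachidonic and linoleic acid to epoxides and alcohols, and Cyp2c70 makes the muricholic bile acids that set rodents apart from humans. Several members differ between the sexes in mouse liver under the control of growth hormone pulses, and others are induced through the nuclear receptor CAR (Nr1i3), which binds DNA with the retinoid X receptor Rxra.

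In GENCODE M21 on GRCm38, the assembly also called mm10, the 10 members span 918 kb of chromosome 19, 39269405 to 40187333. In order along the chromosome they are Cyp2c29, Cyp2c38, Cyp2c39, Cyp2c67, Cyp2c40, Cyp2c69, Cyp2c37, Cyp2c54, Cyp2c50 and Cyp2c70. Each is a protein-coding gene whose transcript used here for length has 9 exons. Cyp2c67 (39608842 to 39649051), Cyp2c40 (39767071 to 39812814) and Cyp2c69 (39842814 to 39886799) lie on the minus strand next to the non-member Cyp2c68 (39688834 to 39741054). Cyp2c29 (39269405 to 39330713, plus strand) overlaps the pseudogene Cyp2c53-ps (39229254 to 39274985, plus strand), so a part of their reads cannot be assigned by position alone.

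The members are close copies of each other to different degrees. Over the 45 pairs of coding sequences, the share of identical aligned bases was 66.7% at the lowest and 79.1% at the median, and it was highest, at 97.9%, for Cyp2c40 and Cyp2c69, which differ at 31 of 1473 aligned bases. Of all 125-base windows of the Cyp2c40 transcript, the length of 1 sequencing read, 36.5% also occur in a transcript of another gene. The share was 30.3% for Cyp2c69 and 17.5% for Cyp2c67, 6.16% for Cyp2c50, 4.45% for Cyp2c54 and 1.77% for Cyp2c37, and the transcripts used for Cyp2c29, Cyp2c38, Cyp2c39 and Cyp2c70 held no such window. The pseudogene Cyp2c53-ps shares 18 of its windows with another annotated transcript of Cyp2c29. The sources used here do not say how reads that map to several places were counted, and the split of reads among Cyp2c40, Cyp2c69, Cyp2c67 and Cyp2c68 is uncertain.

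The promoter windows of 9 members were found in RefSeq on GRCm38.p6, each reaching from 250 bases before to 50 bases after the start that RefSeq annotates. For Cyp2c29 that start lies inside the longer GENCODE gene model, and for the others at or near its 5′ end. The element CAAAGTCCA, which is bound by the hepatocyte nuclear receptor HNF4A, is shown because its first 7 letters occur in most of the windows. The following windows of 30 bases, read on the strand of the gene, have in capitals the 9 bases closest to that element.
Cyp2c29, chr19:39286965-39286994, plus strand: tatcaaagagaCAAAGTCTAttagagagag
Cyp2c38, chr19:39463168-39463197, minus strand: ctatcaaggaaCAAAGTTTAtttgaatgag
Cyp2c39, chr19:39510725-39510754, plus strand: tatcaaagggaCAAAGTCTActtgaaagag
Cyp2c67, chr19:39649149-39649178, minus strand: tatcattgagaCAAAGTCCAtttggaagca
Cyp2c40, chr19:39812841-39812870, minus strand: tatcattgagaCAAAGTCCAtttggaagag
Cyp2c69, chr19:39886826-39886855, minus strand: tatcattgagaCAAAGTCCAtttggaagag
Cyp2c37, chr19:39992297-39992326, plus strand: tagtattgtagCAAAGTCTAgttgaatgag
Cyp2c50, chr19:40089607-40089636, plus strand: caagaatgttcCAAAGTGCAatggattgat
Cyp2c70, chr19:40187332-40187361, minus strand: gaggtcaaactCAAAGTCCAaactctgtgt

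The full element CAAAGTCCA, searched on both strands, was present in 4 of the 9 promoter windows, those of Cyp2c67, Cyp2c40, Cyp2c69 and Cyp2c70, and in 0.475% of all 32851 promoter windows. Its first bases CAAAGTC, which the full element contains, were present in 7 of 9 and in 4.44% of all windows. These shares are a description only, because the element was picked for its presence in these windows. The windows of Cyp2c67, Cyp2c40 and Cyp2c69 are also near copies, so their hits are not independent. The Cyp2c50 window also holds a stretch that is identical to that of Cyp2c37 at 28 of 30 bases, in which the 9 bases in capitals carry the substitution A4T, counted from 1 at the 5′ end of the element with the base of Cyp2c37 first.
Cyp2c50, chr19:40089554-40089583, plus strand: tagtattgtagCAATGTCTAgttgaaagag

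Cyp2c67, Cyp2c40 and Cyp2c69 are shown in full, with CAAAGTCCA in capitals, because their promoters are nearly alike while their levels, given further on, are not.
Cyp2c67, chr19:39648993-39649292, minus strand: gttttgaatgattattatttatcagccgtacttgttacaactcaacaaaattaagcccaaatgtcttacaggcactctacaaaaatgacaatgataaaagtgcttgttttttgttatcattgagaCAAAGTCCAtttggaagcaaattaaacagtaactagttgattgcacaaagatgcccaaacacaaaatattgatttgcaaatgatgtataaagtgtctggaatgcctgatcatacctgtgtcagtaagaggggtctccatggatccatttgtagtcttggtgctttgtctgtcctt
Cyp2c40, chr19:39812765-39813064, minus strand: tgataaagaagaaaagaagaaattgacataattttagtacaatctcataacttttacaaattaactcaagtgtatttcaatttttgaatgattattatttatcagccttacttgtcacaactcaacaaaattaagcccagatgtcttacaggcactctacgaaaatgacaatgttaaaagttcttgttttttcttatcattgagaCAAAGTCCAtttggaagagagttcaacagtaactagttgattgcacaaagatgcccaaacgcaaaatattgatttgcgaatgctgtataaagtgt
Cyp2c69, chr19:39886720-39887019, minus strand: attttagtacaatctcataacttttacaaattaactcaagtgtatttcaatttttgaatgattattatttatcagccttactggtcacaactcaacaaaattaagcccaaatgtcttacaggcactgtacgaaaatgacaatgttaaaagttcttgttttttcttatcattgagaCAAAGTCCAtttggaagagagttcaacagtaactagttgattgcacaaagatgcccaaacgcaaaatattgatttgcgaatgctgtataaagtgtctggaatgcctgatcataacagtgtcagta

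In their best local alignment the windows of Cyp2c40 and Cyp2c69 differed at 3 of 270 bases, those of Cyp2c67 and Cyp2c40 at 14 of 219 bases and those of Cyp2c67 and Cyp2c69 at 17 of 249 bases. The windows are set by each annotated start, and in Cyp2c40 the element begins 45 bases before that start, against 75 bases in Cyp2c69 and 125 bases in Cyp2c67. The palindrome TTCNNNGAA, the letters that STAT5 recognises, was in 0 of the 9 windows and in 8.30% of all windows. The FOXA letters TGTTTAC were in the windows of Cyp2c38 and Cyp2c39 and in 3.65% of all windows. C/EBP letters, TTNNGCAA on either strand, were in the windows of Cyp2c37, Cyp2c40, Cyp2c67 and Cyp2c69 and in 10.8% of all windows.

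Counts per library totalled 15775059 to 22302533, and all 10 members passed the filter on low counts, with 10 to 30642 reads per member and library. Values are CPM, read counts scaled to the size of each library with TMM factors, and fold changes are log2 of ghrelin over PBS from the edgeR fit across 14170 genes, whose median fold change was 0.00 on the log2 scale. In bulk liver, fewer cells of a type and less RNA per cell cannot be told apart. Hepatocyte markers summed to 116180 to 136070 CPM in ghrelin livers and 117930 to 153190 CPM in PBS livers, with Alb among them, and 0 of the 9 measured were called or had an unadjusted p under 0.05.

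Cyp2c40, which hydroxylates arachidonic acid and is a female-biased gene of mouse liver, had the clearest separation of all members. Its level was 22.7, 20.7, 43.7, 75.8, 19.7 and 18.3 CPM in ghrelin livers 1 to 6, against 8.96, 5.98, 8.55, 7.07, 9.99 and 4.84 CPM in PBS livers 1 to 6. Every ghrelin liver lay above every PBS liver, and ghrelin 4 and ghrelin 3 were the highest. The log2 fold change was 2.15 (SE 0.34), and 1.73 without ghrelin 4.

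Cyp2c69, the neighbour of Cyp2c40 and its closest copy among the members, is also female-biased in mouse liver. It had 5.24, 4.84, 14.2, 36.1, 6.50 and 5.85 CPM in ghrelin livers 1 to 6, against 3.77, 2.13, 2.08, 3.07, 2.58 and 1.64 CPM in PBS livers 1 to 6. The groups did not overlap here either, and the order of the highest livers, ghrelin 4 and then ghrelin 3, was that of Cyp2c40. The log2 fold change was 2.28 (SE 0.48), and 1.54 without ghrelin 4.

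The counts of the pair were also set against each other within each liver. There were 2.10 to 4.33 Cyp2c40 reads per Cyp2c69 read in ghrelin livers, against 2.30 to 4.11 in PBS livers, so the ratio overlapped between groups. Ghrelin 4, with the most reads of both, had the lowest ratio of all 12 livers. When the counts of both genes were added into 1 row, a choice made after seeing the data, the sum had a log2 fold change of 2.18 (SE 0.37).

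**Figure D1:**
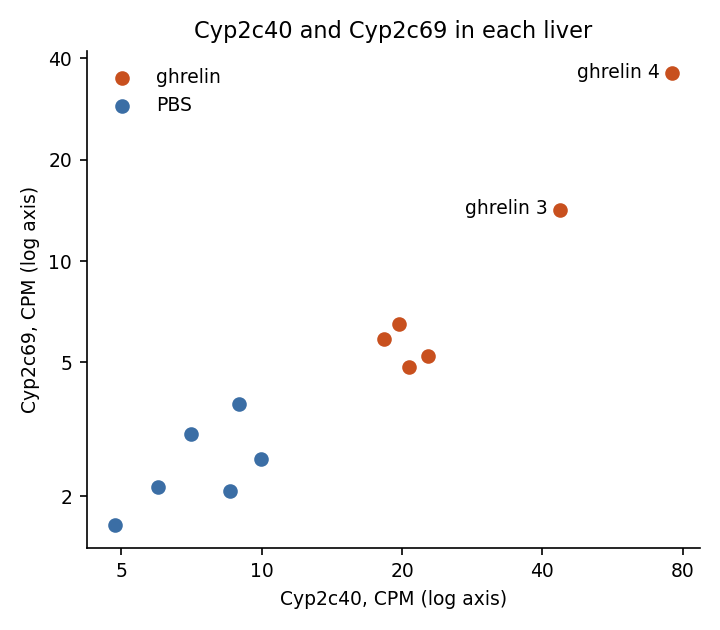
Cyp2c40 against Cyp2c69 in CPM, both on log axes, with 1 point per liver for 6 ghrelin and 6 PBS livers. The ghrelin livers lie above the PBS livers on both axes, and ghrelin 4 (75.8 and 36.1 CPM) and ghrelin 3 (43.7 and 14.2 CPM) stand farthest out.

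Cyp2c67, whose coding sequence is 97.7% identical to those of Cyp2c40 and Cyp2c69, did not share their pattern. It had 527, 397, 417, 310, 320 and 435 CPM in ghrelin livers 1 to 6, against 391, 536, 333, 299.7, 412 and 338 CPM in PBS livers 1 to 6. The groups overlapped over most of their range, and the log2 fold change was 0.06 (SE 0.15). Per 100 Cyp2c67 reads there were 4.22 to 24.4 Cyp2c40 reads in ghrelin livers, against 1.12 to 2.56 in PBS livers, a ratio that no library scaling can move. The non-member Cyp2c68, which lies between Cyp2c67 and Cyp2c40, averaged 229 ± 31.6 CPM in ghrelin livers and 216 ± 21.4 CPM in PBS livers (SD, n = 6 each), with a log2 fold change of 0.08 (SE 0.09). With the counts of all 4 neighbours added into 1 row, the log2 fold change was 0.14 (SE 0.10), since Cyp2c67 and Cyp2c68 hold most of the reads.

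On both sides of these 4 neighbours the members had lower means in ghrelin livers than in PBS livers, except at the far end of the cluster. Cyp2c29, which makes epoxides of arachidonic acid and is induced through CAR, had 793, 1065, 747, 1060, 775 and 859.8 CPM in ghrelin livers 1 to 6, against 1604, 1071, 1328, 1571, 1222 and 1398 CPM in PBS livers 1 to 6. The groups did not overlap, although PBS 2 lay just above ghrelin 2 and ghrelin 4. The log2 fold change was -0.63 (SE 0.12).

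Cyp2c37, an arachidonic acid hydroxylase, had 205, 222, 199.8, 261, 200.3 and 219 CPM in ghrelin livers 1 to 6, against 325, 242, 323, 339.9, 309 and 371 CPM in PBS livers 1 to 6. Only PBS 2 and ghrelin 4 crossed. The log2 fold change was -0.55 (SE 0.09), the smallest SE relative to its size among the lower members.

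Its neighbours Cyp2c54 and Cyp2c50 make epoxides and alcohols of arachidonic and linoleic acid. Cyp2c54 had 257, 281, 283, 323, 274 and 289.6 CPM in ghrelin livers 1 to 6, against 443, 253, 384, 409.6, 343 and 456 CPM in PBS livers 1 to 6. All PBS livers but PBS 2 lay above all ghrelin livers, and the log2 fold change was -0.42 (SE 0.12). Cyp2c50 ranged from 759 to 907 CPM around a median of 854 CPM in ghrelin livers, against 727 to 1225 CPM around a median of 962 CPM in PBS livers. PBS 2 was again the lowest of its group, and the log2 fold change was -0.21 (SE 0.10).

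The spread of these neighbours was smaller among ghrelin livers. The coefficient of variation of Cyp2c50 was 6.92% in ghrelin livers and 16.8% in PBS livers, and that of Cyp2c54 was 7.68% in ghrelin livers and 19.7% in PBS livers. Whether the spreads differ was not tested.

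Cyp2c38 and Cyp2c39, the other members beside Cyp2c29, are expressed at low levels. Cyp2c38, which also makes arachidonic acid epoxides, had 14.5, 12.1, 12.6, 24.7, 11.5 and 12.7 CPM in ghrelin livers 1 to 6, against 44.8, 16.6, 33.2, 32.1, 20.02 and 17.9 CPM in PBS livers 1 to 6. Ghrelin 4 lay among the PBS livers, and the other 5 ghrelin livers lay below all of them. The log2 fold change was -0.89 (SE 0.25), and -1.11 without ghrelin 4.

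Cyp2c39, an oxidase of retinoic acid, had only 10 to 56 reads per library. It ranged from 0.62 to 1.74 CPM around a median of 0.827 CPM in ghrelin livers, against 1.13 to 2.93 CPM around a median of 1.59 CPM in PBS livers. The groups overlapped through ghrelin 4 and ghrelin 1, and the log2 fold change was -0.84 (SE 0.30).

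Cyp2c70, the muricholic acid enzyme at the end of the cluster, had a higher mean in ghrelin livers. It had 1168, 767, 1117, 899, 1213.5 and 1277 CPM in ghrelin livers 1 to 6, against 656, 744, 558, 729, 991 and 854 CPM in PBS livers 1 to 6. Ghrelin 2 and ghrelin 4 lay within the PBS range, where PBS 5 and PBS 6 were the highest. The log2 fold change was 0.51 (SE 0.14), the opposite sign to that of Cyp2c50 beside it.

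**Figure D2:**
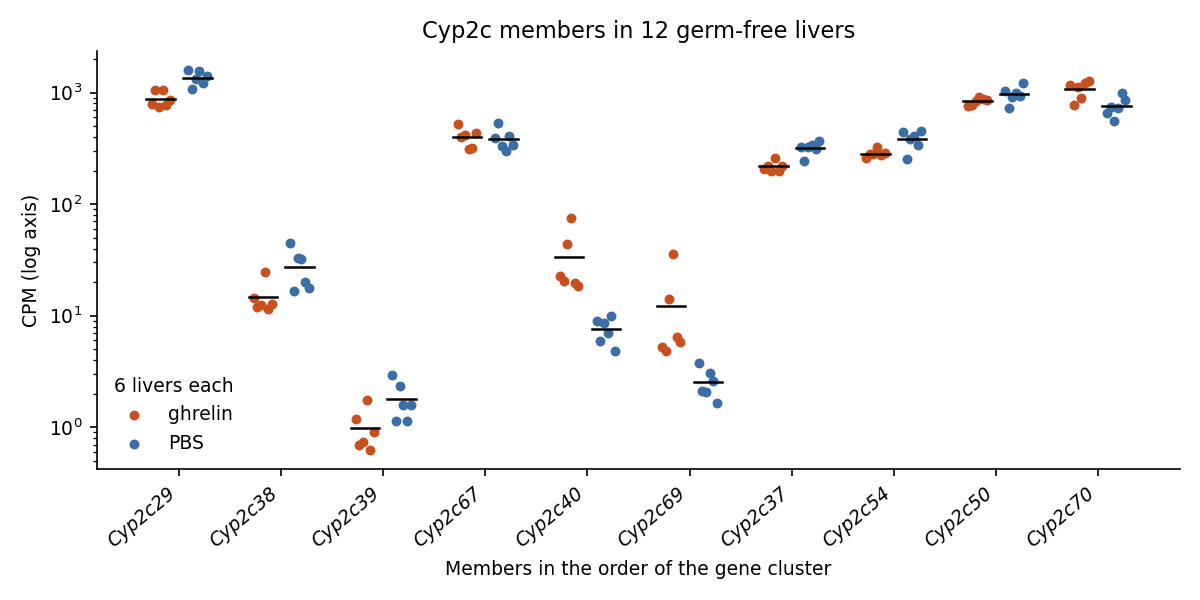
CPM on a log axis for each of the 10 members in the order of the cluster, with ghrelin livers on the left and PBS livers on the right of each gene. Each point is 1 liver (6 per group) and each black line a group mean. The groups are apart without overlap for Cyp2c29, Cyp2c40 and Cyp2c69.

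The fold change was above 0 for 4 of the 10 members and below 0 for 6, and its median was -0.32 on the log2 scale, against 0.00 over all genes tested. By the edgeR quasi-likelihood test with Benjamini-Hochberg adjustment over all genes, 1 member was called higher, Cyp2c40, where 0.0423% of all genes were, and 1 was called lower, Cyp2c37, where 0.0635% were (either way 2 members, and 0.106% of all genes). The groups did not overlap for 2 members that were higher, where 0.367% of all genes were of that kind, and for 1 that was lower, where 0.459% were (either way 3 members, and 0.826% of all genes). These shares stand beside the counts only, because the same contrast was in view when the members were chosen.

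With 1 library fewer in turn, the calls came and went. The largest shift of Cyp2c40 was to a log2 fold change of 1.73 without ghrelin 4, where Cyp2c69 had 1.54 against 2.28 with all libraries. In the other removals Cyp2c40 had 2.05 to 2.28. Cyp2c40 was not called without ghrelin 1, ghrelin 3, PBS 2 or PBS 3, where its log2 fold change was 2.06 to 2.24, against 2.15 with all libraries. Cyp2c69 was called beside it without ghrelin 4 (2 members higher, of 16 genes in all). Cyp2c37 was called lower only without ghrelin 4, PBS 2 or PBS 5, and its log2 fold change was -0.55 to -0.50 in the other 9 removals. No gene of the whole table was called without ghrelin 1 or without ghrelin 3, and without PBS 3 there were 1 higher and 4 lower. Cyp2c29 was called lower without ghrelin 2, 2 members without ghrelin 4 (of 16 genes) or without PBS 5 (of 13), and 3 without PBS 2 (of 8).

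**Figure D3:**
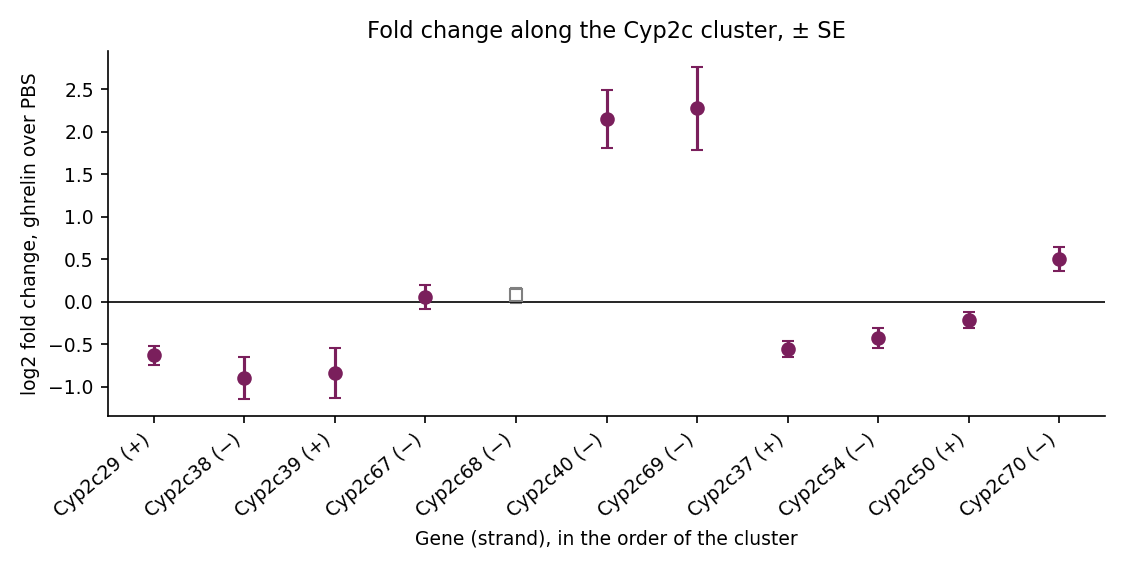
Log2 fold change of ghrelin over PBS with its SE for the members (filled circles) and the non-member Cyp2c68 (open square), in the order of the cluster, with the strand in brackets. Cyp2c40 (2.15) and Cyp2c69 (2.28) stand above their neighbours Cyp2c67 (0.06) and Cyp2c68 (0.08), with Cyp2c29 (-0.63) and Cyp2c37 (-0.55) on the outer sides.

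The family total differed less between the groups than most of its parts, whose differences had both signs. All 10 members together made up 0.353% to 0.404% of the counts in ghrelin livers, against 0.368% to 0.467% in PBS livers. The summed level was 3760 ± 155 CPM in ghrelin livers and 4216 ± 403 CPM in PBS livers (SD, n = 6 each), and of the PBS livers PBS 2 and PBS 3 alone lay among the ghrelin values. Cyp2c29 held 23.5% ± 4.05 of the member counts in ghrelin livers and 32.3% ± 3.21 in PBS livers (SD, n = 6 each). Cyp2c70 held 28.5% ± 4.87 in ghrelin livers and 18.0% ± 3.53 in PBS livers, and Cyp2c50 held 22.3% ± 1.31 in ghrelin livers and 22.9% ± 1.98 in PBS livers. There were 0.72 to 1.57 Cyp2c70 reads per Cyp2c29 read in ghrelin livers, against 0.409 to 0.811 in PBS livers, and ghrelin 2 lay within the PBS range. Cyp2c40 held 0.885% ± 0.581 of the member counts in ghrelin livers and 0.181% ± 0.0476 in PBS livers.

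The order of the members within PBS livers does not use the ghrelin contrast, although the members were chosen by their counts in these livers. Per kilobase of transcript, Cyp2c29 was the highest member in PBS livers at 766 ± 115 CPM per kilobase, followed by Cyp2c50 at 535 ± 90.0, Cyp2c70 at 440.0 ± 88.3, Cyp2c67 at 222 ± 48.9, Cyp2c54 at 214 ± 42.0 and Cyp2c37 at 175 ± 23.6 (SD, n = 6). Far below them came Cyp2c38 at 9.56 ± 3.88, Cyp2c40 at 4.19 ± 1.08, Cyp2c69 at 1.55 ± 0.469 and Cyp2c39 at 0.986 ± 0.394 CPM per kilobase. The highest and the lowest member differed 777-fold. In ghrelin livers Cyp2c70 came first at 625 ± 115 CPM per kilobase, ahead of Cyp2c29 at 495.5 ± 80.6, and Cyp2c40 and Cyp2c69 ranked 7 and 8, ahead of Cyp2c38 at 9.

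Neighbours in the PBS order were compared within each liver by an exact two-sided sign-flip permutation test over 6 livers. Its smallest possible p is 0.0312, and p was adjusted over the 9 neighbour pairs. These same livers set the pairs and the higher gene of each, so the p-values describe the order and are no independent test of it. For 6 of the 9 pairs the higher gene was higher in 6 of 6 livers (exact adjusted p = 0.0469), the largest step being that from Cyp2c37 down to Cyp2c38, a log2 ratio of 4.28 ± 0.54. Cyp2c50 and Cyp2c70 were not separated (0.29 ± 0.34, higher in 4 of 6 livers, exact adjusted p = 0.141), nor were Cyp2c67 and Cyp2c54 (0.06 ± 0.58, higher in 2 of 6 livers, exact adjusted p = 0.875) or Cyp2c69 and Cyp2c39 (0.69 ± 0.55, higher in 5 of 6 livers, exact adjusted p = 0.0804). With lengths from the union of annotated exons, Cyp2c70 came before Cyp2c50 and 0 pairs passed, as 4 pairs stood at the smallest possible p and 6 are needed for any to pass. The step from Cyp2c37 to Cyp2c38 was 4.28 under both lengths.

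**Figure D4:**
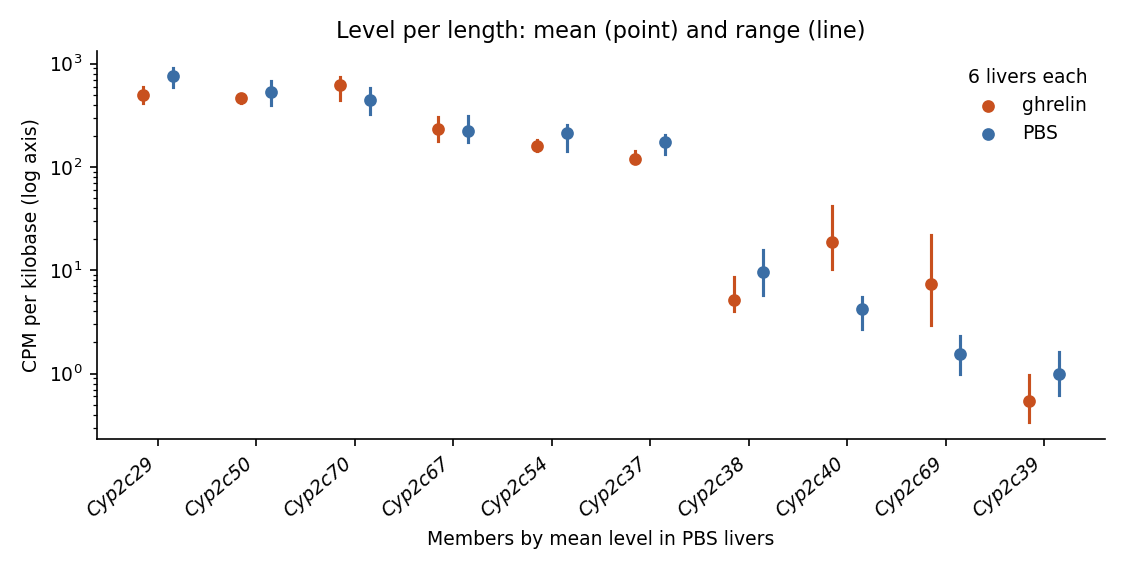
Level of each member in CPM per kilobase on a log axis, ordered by the mean of the PBS livers, with ghrelin left of PBS. Points are means and lines the range over 6 livers. The 6 high members lie above 100 (Cyp2c37 at 175 in PBS livers) and the 4 low members below 50, with Cyp2c40 and Cyp2c69 the only low members whose ghrelin range lies above their PBS range.

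Livers of 1 group also differed among themselves, and this spread does not use the ghrelin contrast either. With group means removed, Pearson's r of log2 CPM was computed for all 45 member pairs over 12 livers, with a two-sided p from 100000 permutations within groups, adjusted over the 45 pairs. Of these, 6 pairs passed, all positive, and 4 of the 6 also passed by Spearman's rho.

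Cyp2c37, Cyp2c54 and Cyp2c50, neighbours in the cluster, varied together. Cyp2c54 and Cyp2c50 had r = 0.90 (permutation p = 2.9e-04, adjusted 0.00832) and rho = 0.82 (permutation p = 0.00175, adjusted 0.0197), with r = 0.72 without PBS 2 and PBS 6. Cyp2c37 and Cyp2c54 had r = 0.90 (permutation p = 6.1e-04, adjusted 0.00915) and rho = 0.86 (permutation p = 0.00128, adjusted 0.0192), with r = 0.68 without ghrelin 4 and PBS 2. Cyp2c37 and Cyp2c50 had r = 0.80 and did not pass (permutation p = 0.0102, adjusted 0.0580; rho = 0.66, permutation p = 0.0221, adjusted 0.113), with r = 0.53 without ghrelin 4 and PBS 2.

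Cyp2c29 varied with Cyp2c37 and Cyp2c54 although it lies at the other end of the cluster. Cyp2c29 and Cyp2c37 had r = 0.79 (permutation p = 0.0032, adjusted 0.0266) and rho = 0.85 (permutation p = 3.2e-04, adjusted 0.0144), with r = 0.77 without ghrelin 2 and PBS 2. Cyp2c29 and Cyp2c54 had r = 0.73 (permutation p = 0.00354, adjusted 0.0266) and rho = 0.66 (permutation p = 0.0172, adjusted 0.113), with r = 0.76 without ghrelin 2 and PBS 2. These genes share no 125-base window with Cyp2c29, and Cyp2c37 and Cyp2c54 share none with each other. Cyp2c50 shares 30 windows with Cyp2c37 and 74 with Cyp2c54, and the part of shared reads in the covariation of Cyp2c50 was not tested.

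Cyp2c38 and Cyp2c39, which are 94.2% identical in coding sequence and share no 125-base window, had r = 0.89 (permutation p = 3.7e-04, adjusted 0.00832) and rho = 0.86 (permutation p = 8.5e-04, adjusted 0.0191), with r = 0.72 without ghrelin 4 and PBS 1. Cyp2c40 and Cyp2c69 had r = 0.92 (permutation p = 0.00341, adjusted 0.0266) and rho = 0.85 (permutation p = 0.00739, adjusted 0.0665). That relation rested on the outlying livers in part, with r = 0.55 without ghrelin 3 and ghrelin 4. It was r = 0.97 within ghrelin livers and 0.64 within PBS livers. Cyp2c40 and Cyp2c69 share 356 windows of 125 bases, 21.2% of those of Cyp2c40. The part of shared reads in their covariation was not tested.

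No negative correlation passed. The lowest was that of Cyp2c67, which had r = -0.72 with Cyp2c54 (permutation p = 0.0109, adjusted 0.0580; rho = -0.62, permutation p = 0.0328, adjusted 0.134), which was -0.35 without ghrelin 1 and PBS 2. Its r with its near copy Cyp2c40 was -0.27 (permutation p = 0.42, adjusted 0.541; rho = -0.20, permutation p = 0.567, adjusted 0.69), and -0.15 without ghrelin 1 and PBS 2. Leaving out PBS 2 left 1 pair past the threshold and leaving out ghrelin 4 left 2.

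**Figure D5:**
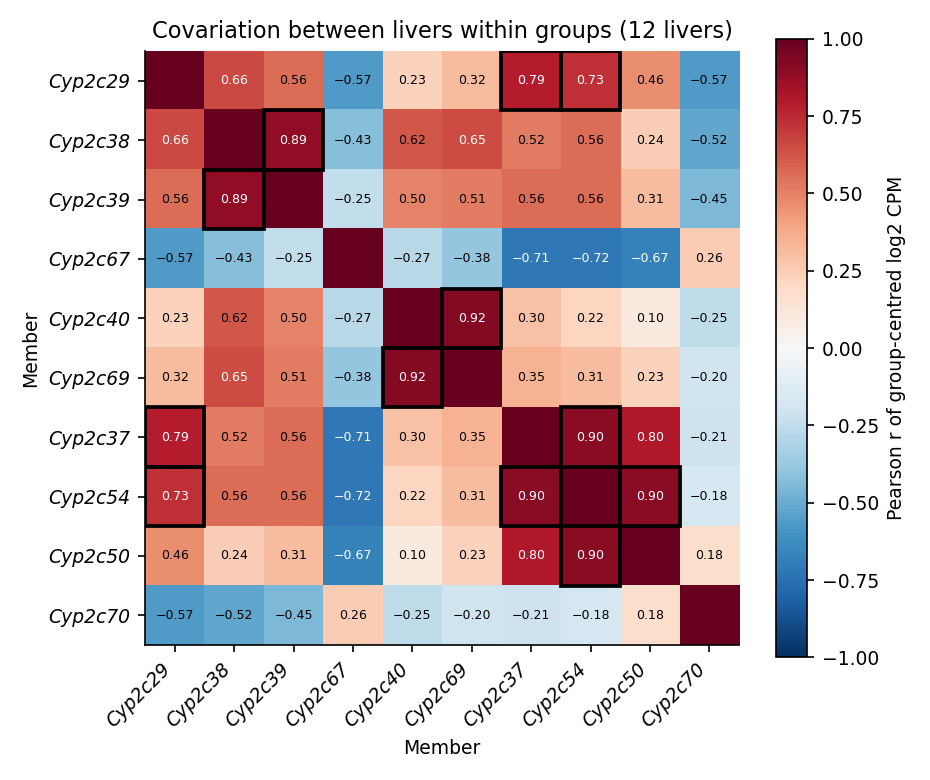
Pearson's r of group-centred log2 CPM between members over 12 livers, in the order of the cluster, from -1 (blue) to 1 (red), with the 6 pairs past an adjusted p of 0.05 framed. The positive pairs join Cyp2c29, Cyp2c37, Cyp2c54 and Cyp2c50, then Cyp2c38 with Cyp2c39 and Cyp2c40 with Cyp2c69, while Cyp2c67 and Cyp2c70 join none.

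Outside the family, 12815 genes with a mean of at least 1 CPM were ranked by the same r with each member, as a description of likeness over 12 livers that share libraries and depth. Each value below is among the highest of 12815, and how high such a maximum runs by chance was not tested. The closest to Cyp2c50 was Ugt3a2 (r = 0.96), a glycosyltransferase, and the closest to Cyp2c29 was Gch1 (r = 0.94), which starts tetrahydrobiopterin synthesis. Maob, a monoamine oxidase, and Gsta2, a glutathione transferase, followed Cyp2c39 (r = 0.94 and 0.92), which had only 10 to 56 reads per library. For Cyp2c38, Dph3 came first (r = 0.92) and Gstt1, another glutathione transferase, second (r = 0.92). Aldh6a1, a dehydrogenase of valine breakdown, was closest to Cyp2c54 (r = 0.92) and Nudt6 to Cyp2c37 (r = 0.92). Cyp2c70 was most like Rpn1, a subunit of the oligosaccharyltransferase (r = 0.94), Cyp2c67 most like Snora69 (r = 0.88) and Cyp2c69 most like Cyb561d2 (r = 0.88). Cyp2c40 was most like Cspp1 (r = 0.90) and Txnrd1, the cytosolic thioredoxin reductase (r = 0.85). Within PBS livers alone these 2 values were 0.57 and 0.65, against 0.98 and 0.94 within ghrelin livers.

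Of the other Cyp2c rows, 0 of the 4 that passed the filter were called. Cyp2c44, a renal and hepatic epoxygenase named Cyp2c23 in GENCODE, lies outside the cluster at 44005022 to 44029208. It averaged 317 ± 14.6 CPM in ghrelin livers and 309 ± 26.3 CPM in PBS livers (SD, n = 6 each), with a log2 fold change of 0.04 (SE 0.06). Cyp2c55 averaged 1.68 ± 0.551 CPM in ghrelin livers and 1.90 ± 0.233 CPM in PBS livers, with a log2 fold change of -0.17 (SE 0.20), and the pseudogene Cyp2c53-ps had -0.49 (SE 0.39). Cyp2c66 had 1 read in all and Cyp2c65 had 0 in 12 libraries, where a count of 0 allows up to 0.0127 CPM, a limit that covers counting error only.

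The lists that follow hold genes that serve, control or accompany the members, with calls by edgeR over all genes tested. Over those 14170 genes, 913 were higher and 983 lower at an unadjusted edgeR p under 0.05. Of the same genes limma voom called 6 higher and 10 lower. DESeq2 called 95 higher and 128 lower, starting from 27410 genes with a count in some library. It gave no adjusted p for Cyp2c39, so fewer than 27410 genes were adjusted. Of the 6 electron partners of P450 enzymes, 2 had a fold change above 0 and 4 below, the median log2 value was -0.06, and 0 were called by edgeR, DESeq2 or limma voom (2 had an unadjusted p under 0.05). Por, the P450 reductase, averaged 152 ± 53.9 CPM in ghrelin livers and 182 ± 64.5 CPM in PBS livers (SD, n = 6 each), with a log2 fold change of -0.27 (SE 0.24). Cyb5a, cytochrome b5, averaged 725 ± 57.5 CPM in ghrelin livers and 829.7 ± 75.0 CPM in PBS livers. Of the 12 genes of haem synthesis and breakdown, 8 were above 0, the median was 0.06, and 0 were called by any of these tools (2 at an unadjusted p under 0.05). Alas1, which starts haem synthesis, averaged 160.2 ± 69.1 CPM in ghrelin livers and 277 ± 151 CPM in PBS livers, with a log2 fold change of -0.79 (SE 0.35).

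Of 24 tested regulators of Cyp2c genes, 12 were above 0 and 12 below, the median log2 value was -0.01, and 0 were called by edgeR or limma voom and 1, Stat5a, by DESeq2 (5 at an unadjusted p under 0.05). The CAR gene Nr1i3 had a log2 fold change of -0.08 (SE 0.21), its partner gene Rxra 0.01 (SE 0.05), the pregnane X receptor gene Nr1i2 -0.08 (SE 0.11) and Hnf4a -0.16 (SE 0.12). Stat5a, a transcription factor of the growth hormone pathway, had the highest value of the list, 0.58 (SE 0.14), with 11.2 ± 2.81 CPM in ghrelin livers and 7.48 ± 0.762 CPM in PBS livers (SD, n = 6 each), and is named here after its values were seen. Of the same pathway, Stat5b had 0.29 (SE 0.10) and Bcl6, a repressor active in male liver, 0.48 (SE 0.64). Cux2, a regulator found mainly in female liver, stayed below the filter, with 0.0990 to 0.565 CPM in ghrelin livers and 0.219 to 1.05 CPM in PBS livers.

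Targets of CAR and the pregnane X receptor other than the members mostly had fold changes below 0. Of 25 tested, 3 were above 0 and 22 below, where 7087 and 7083 of all 14170 genes were. The median log2 value of the 25 was -0.17, against 0.00 over all genes. DESeq2 called 1 higher and 3 lower and limma voom 1 lower. At an unadjusted p under 0.05, 1 was higher and 8 were lower, where 913 and 983 of all 14170 genes were. By edgeR 1 was called, Slco1a4, an organic anion transporter, which fell to 26.6 ± 4.10 CPM in ghrelin livers, against 54.3 ± 15.9 CPM in PBS livers (SD, n = 6 each). Cyp2b10, the marker gene of CAR activity, had only 1 to 139 reads per library. Its mean was 0.549 ± 0.550 CPM in ghrelin livers and 2.51 ± 2.18 CPM in PBS livers, with a log2 fold change of -2.16 (SE 0.66). Cyp3a11, a drug-metabolising P450 induced through the pregnane X receptor, averaged 47.4 ± 16.2 CPM in ghrelin livers and 82.2 ± 27.5 CPM in PBS livers. Neither Cyp2b10 nor Cyp3a11 was called. The part of these receptors in the members' differences was not tested.

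Of 11 tested genes of fatty acid epoxide handling, which act on products of the members, 8 were above 0, the median log2 value was 0.16, and 0 were called by edgeR, DESeq2 or limma voom (1 at an unadjusted p under 0.05). A log2 fold change of 0.18 (SE 0.10) was found for Ephx2, the soluble epoxide hydrolase, and one of 0.16 (SE 0.10) for Ephx1, its microsomal counterpart. Of 16 bile acid synthesis genes, the pathway in which Cyp2c70 acts, 11 were above 0, the median was 0.10, and 0 were called by edgeR or limma voom and 2 by DESeq2 (5 at an unadjusted p under 0.05). For Cyp7a1, its first enzyme, the log2 fold change was -0.38 (SE 0.51), and for Cyp8b1, which directs it to cholic acid, it was 0.51 (SE 0.34).

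Markers of position in the liver lobule and of other cells are given beside the members, and their part in the members' differences was not tested. The 15 pericentral markers, 8 above 0 with a median log2 value of 0.02, summed to 10318 to 12600 CPM in ghrelin livers and 11707 to 14018 CPM in PBS livers. Among them was Cyp2e1, a pericentral P450, with a log2 fold change of -0.22 (SE 0.09). It alone averaged 6562 CPM in ghrelin livers and 7657 CPM in PBS livers. Glul, the glutamine synthetase next to the central vein, had a log2 fold change of -0.09 (SE 0.07). The log2 values of the pericentral list ran from -0.33 to 0.53. The 15 periportal markers, 3 above 0 with a median of -0.09, summed to 17943 to 20691 CPM in ghrelin livers and 20166 to 23163 CPM in PBS livers, while Cyp2f2, a periportal P450, had 0.37 (SE 0.09). By edgeR 0 genes of both lists were called (3 higher and 7 lower at an unadjusted p under 0.05), and DESeq2 called 1 higher and 1 lower among the periportal markers.

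Markers of other cells follow, list by list. Those of neutrophils summed to 2.82 to 7.10 CPM in ghrelin livers and 6.60 to 13.1 CPM in PBS livers, and all 5 tested of the 8 were below 0, with a median log2 value of -0.99. Kupffer cell markers, 4 of 12 above 0 with a median of -0.03, summed to 322 to 429.8 CPM in ghrelin livers and 243 to 462 CPM in PBS livers. Endothelial markers, 5 of 9 above 0 with a median of 0.04, summed to 467 to 510.5 CPM in ghrelin livers and 451 to 519 CPM in PBS livers. Stellate cell markers, 6 of 10 above 0 with a median of 0.07, summed to 409.9 to 482 CPM in ghrelin livers and 421 to 472 CPM in PBS livers. Cholangiocyte markers, 5 of 6 tested above 0 with a median of 0.21, summed to 28.7 to 37.5 CPM in ghrelin livers and 23.5 to 35.6 CPM in PBS livers. Lymphocyte markers, of which 2 of 10 could be tested, summed to 2.80 to 5.52 CPM in ghrelin livers and 3.01 to 4.21 CPM in PBS livers. Intestinal markers, checked because Cyp2c65 and Cyp2c66 are known from the gut, summed to 42.2 to 57.4 CPM in ghrelin livers and 48.6 to 57.7 CPM in PBS livers, with Cdh17 and Alpi at 0 in every library. In these 7 lists 0 genes were called by edgeR, DESeq2 or limma voom, and at an unadjusted p under 0.05 1 Kupffer cell, 2 neutrophil and 1 stellate cell marker were lower and 1 stellate cell marker was higher.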

How the data were processed

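Total RNA of 12 livers was depleted of ribosomal RNA and sequenced from both ends for 125 cycles, per the labels' protocols. The authors deposited raw counts over the exons of each gene, not normalised. The submitters' processing notes name the aligner STAR 2.4.0i and the build mm10. Which tool counted, whether by strand, and what became of reads with several positions is not given in these sources. Groups and numbers come from the titles. Library totals were 15775059 to 22302533. Genes were filtered with filterByExpr (minimum count 10, minimum total 15), which left 14170, scaled by TMM and compared by the two-sided quasi-likelihood F test of edgeR 4.0.16 in R 4.3.3, with calls where the Benjamini-Hochberg adjusted p was under 0.05. SE is the absolute log2 fold change over the square root of F. CPM use the TMM factors, and log2 CPM a prior count of 2. Levels per kilobase use the annotated transcript with the longest coding sequence. Identity comes from global alignment of coding sequences with Biopython 1.88. The members and gene lists were chosen with earlier results of these data known. Genes are named by rule: members, other Cyp2c rows, preset genes, called list genes and those most like each member, of which the text gives a part. Chi-square per degree of freedom between libraries of 1 group was 11.7 to 48.6, and no library appeared to be held more than once. The edgeR and correlation steps were tested on simulated data. Alternatives were DESeq2 1.42.0, limma 3.58.1, other scalings and filters, a replicate block and leaving out each library.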

Additional observations from a re-analysis of the deposited data

Results flagged for a closer look

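In 22 groups of 6 livers examined (10 members and their sum, in each group), 3 values stood apart from the other livers by Dixon's test of the gap to the nearest value over the group's range, where chance gives about 5% of groups. All 3 belong to ghrelin 4. Its Cyp2c69 level was 36.1 CPM, against 14.2 CPM in the next ghrelin liver. Its Cyp2c38 level was 24.7 CPM, against 14.5 CPM in the next. Its Cyp2c37 level was 261 CPM, against 222 CPM in the next. Without ghrelin 4 the log2 fold changes were 1.54 for Cyp2c69, -1.11 for Cyp2c38 and -0.60 for Cyp2c37, against 2.28, -0.89 and -0.55 with it.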

How the results depend on the processing

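Each of the 10 members kept the sign of its fold change in all 22 alternatives, except Cyp2c67, whose log2 fold change was -0.031 without ghrelin 1, -0.0023 without PBS 4 and at most 0.18, without PBS 2. The number of members called higher (1, Cyp2c40) was 2 with no filter on low counts and with the replicate block, 3 by DESeq2, and 0 with robust dispersion estimation and by limma voom; leaving out 1 library gave 0 to 2. The number called lower (1, Cyp2c37) was 2 with library totals without factors, with no filter, with the replicate block and by limma voom, and 3 by DESeq2; leaving out 1 library gave 0 to 3. Over the 22 alternatives, Cyp2c40 was called in 16, Cyp2c37 in 13, Cyp2c29 in 9, Cyp2c69 in 4, Cyp2c54 in 2 and Cyp2c70 in 1. Over all genes the calls were 22 higher and 36 lower with the replicate block, 95 and 128 by DESeq2, 28 and 35 with no filter (of 27410 genes), 4 and 5 with robust dispersion, 6 and 10 by limma voom, 6 and 10 with library totals, and 0 to 16 in each direction with 1 library left out, against 6 and 9. Same-numbered libraries correlated at -0.081 to 0.27 and in 3 of 6 cases best with their own number. Not every pair was over 0.1 and no label says what a number marks, so the numbers were not used as pairs; the values do not exclude a pairing. The log2 ratio of the summed level stayed between -0.21 and -0.13 against -0.16. Of the 6 neighbour pairs that differed in PBS livers, 0 passed with exon-union lengths and 0 in the 6 ghrelin livers, where 4 and 5 of 9 pairs stood at the smallest possible p and 6 are needed for any to pass; with 1 PBS library left out 0 passed (range 0 to 0), since 5 livers cannot reach the threshold. Leaving out 1 library left 1 to 9 covarying pairs against 6. The cause of the other changes was not tested. Read depth limits Cyp2c39 most.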
